A study of Mus musculus with 8 samples.

Results

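Wnt4, 4 Frizzled receptors (Fzd1, Fzd4, Fzd6 and Fzd7), the co-receptor Ror2 and 4 planar cell polarity genes (Celsr2, Vangl2, Dvl1 and Daam1) were followed across the RNA sequencing libraries of mouse muscle stem cells. These 10 genes were chosen by name for the route by which Wnt4 from the niche acts on RhoA, and each matched 1 of the 57180 genes of the deposited tables. The cells were sorted by flow cytometry and used without culture. There were 4 control libraries, labelled wild type (replicates 2, 5, 7 and 8), and 4 libraries from mice with 1 floxed and 1 intact allele of RhoA in the stem cells (replicates 5, 6, 7 and 8), written SC-RhoAfl/+, titled RhoA het and called RhoA knockdown in another label. The Cre driver, the age and the sex of the mice, and whether each library came from 1 mouse, are not given in the sources used here. Sample values are listed below in that order of numbers, control first. P-values measure the spread between these libraries, which may be technical.

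Wnt proteins are secreted ligands that bind Frizzled receptors on the cell surface. In the β-catenin branch, Frizzled and an Lrp co-receptor stabilise β-catenin. In the planar cell polarity branch, Frizzled works with Ror and Vangl proteins and with the cadherin-like Celsr proteins, Dishevelled (Dvl) relays the signal, and the formin Daam1 couples Dishevelled to RhoA and the actin cytoskeleton. In resting muscle, Wnt4 made by the muscle fibre is known to act through RhoA on the stem cells beneath it and to help hold them quiescent, and Wnt7a signalling through Fzd7 and Vangl2 is known to drive symmetric division of stem cells.

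Total assigned fragments per library ran from 19138763 to 25606342. All 9 muscle stem cell markers on the list were detected in every library, with Pax7 between 78.5 and 175.8 CPM (counts scaled to library size with edgeR's TMM factors). Pax7 was lower in every RhoA het library (at most 105.6 CPM) than in any control library (at least 112.5 CPM), with a log2 fold change of -0.51 (edgeR unadjusted p 0.0173, adjusted p 1). Groups that did not overlap occurred in 1.81% of all genes tested. Pax7 was the 1 of 9 stem cell markers with an unadjusted p under 0.05. Of the 9, 4 had positive and 5 negative fold changes (median log2 fold change -0.02). Their sums overlapped between the groups, at 8615 to 14837 CPM in control and 7760 to 15119 CPM in RhoA het. Control replicate 2 and RhoA het replicate 6 had 758.4 and 696.9 CPM summed over 4 Y-linked genes and at most 0.333 CPM of Xist. The other 6 libraries had at most 0.0939 CPM on the Y-linked genes and at least 181.9 CPM of Xist, and these 6 are the pairs numbered 5, 7 and 8. With them alone and no block, 0 members were called. RhoA het replicate 6 also stood apart in 10 endothelial markers, which summed to 691.8 CPM there and to between 74.3 and 169.9 CPM in the other libraries. All 10 of these markers had positive fold changes (median log2 fold change 1.86), and 2 of 10 had an unadjusted p under 0.05 in edgeR. Rhoa, the targeted gene, was at 382.9, 309.2, 272.6 and 333.6 CPM, then 252.5, 271.3, 253.2 and 282.1 CPM, so the groups overlapped.

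The members covered a wide range of levels. Per length, in the deposited TPM (counts scaled to gene length and library size) averaged over the 8 libraries, Daam1 was at 47.98 ± 8.07 and Fzd4 at 43.2 ± 12.7 TPM (SD, n = 8). Fzd1 followed at 21.4 ± 6.71, Dvl1 at 12.5 ± 1.69, Fzd7 at 7.18 ± 2.33, Wnt4 at 5.48 ± 2.08, Vangl2 at 3.16 ± 1.04 and Ror2 at 1.89 ± 1.23 TPM (SD, n = 8). Celsr2 at 0.541 ± 0.271 and Fzd6 at 0.343 ± 0.419 TPM were the least abundant. A formin and 2 receptors thus led the set, and Wnt4 stood below Fzd7. Among the mean levels of all 15660 genes tested, Daam1 lay at percentile 82.7, Fzd4 at 80.9, Wnt4 at 40.6 and Celsr2 at 4.02. The order was tested between neighbours within each library by a two-sided exact permutation test with Benjamini-Hochberg adjustment over 8 pairs. Fzd4 was above Fzd1 (2.05-fold in the geometric mean, higher in 7 of 8 libraries), Fzd1 above Dvl1 (1.64-fold, 7 of 8), Dvl1 above Fzd7 (1.79-fold, 8 of 8) and Ror2 above Celsr2 (3.26-fold, 7 of 8), each with an adjusted exact p of 0.0312. That test takes the 8 libraries as independent. With same-numbered libraries averaged, an alternative added after seeing the data, 5 numbers remain, the smallest possible exact p is 0.0625, and none of the 4 could pass (adjusted exact p 0.167 to 0.25). With any 1 library left out, these 4 also missed the threshold (adjusted exact p 0.05 to 0.0625). Daam1 and Fzd4 did not differ beyond their spread (adjusted exact p 0.297), nor did Fzd7 and Wnt4 (0.0729), Wnt4 and Vangl2 (0.0729) or Vangl2 and Ror2 (0.0804). Fzd6 had a library at 0 and was left out of this test.

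The comparison of control with RhoA het asks which genes change when the stem cells carry 1 floxed RhoA allele. None of the 9 members tested was changed (edgeR quasi-likelihood test, adjusted p 1 for each over 15660 genes), and 0 of 9 had an unadjusted p under 0.05. The background was 0% of all genes at an adjusted p under 0.05 and 2.38% at an unadjusted p under 0.05 (372 genes, 1.68% higher and 0.696% lower), with 344 genes at an unadjusted p under 0.05 in DESeq2, where 0 also passed adjustment. The median log2 fold change of the 9 tested members was 0.096, with 5 higher and 4 lower in RhoA het, and over all genes it was -0.00071. For each of the 10 members the CPM values of the groups overlapped, where 1.81% of all genes tested had groups that did not. When the pairs numbered 5, 7 and 8 entered as a replicate block, 2 of 15714 genes passed (0.0127%), and neither was a member. Both are myofibre genes that were lower in RhoA het in that fit, Acta1 (log2 fold change -1.32, edgeR adjusted p 0.0275) and Atp2a1 (-1.396, adjusted p 0.0349), named after their values were seen. The block fit leaves out control replicate 2 and RhoA het replicate 6, where Acta1 was at 30.1 and 247.6 CPM. Over all 8 libraries the 10 myofibre markers had a median log2 fold change of -0.11 and a smallest unadjusted p of 0.493 (edgeR). Fzd4, Fzd7, Ror2 and Dvl1 were higher in RhoA het in 3 of 3 pairs, 4 of 9 members beside 13.6% of all genes. For Dvl1 the log2 CPM differences were 0.03, 0.31 and 0.00079 in the pairs numbered 5, 7 and 8, so the last was nearly a tie. None of the 9 was lower in 3 of 3 pairs, beside 12.5% of all genes (26.2% in either direction). In bulk samples, fewer expressing cells and less RNA per cell cannot be told apart.

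**Figure D1:**
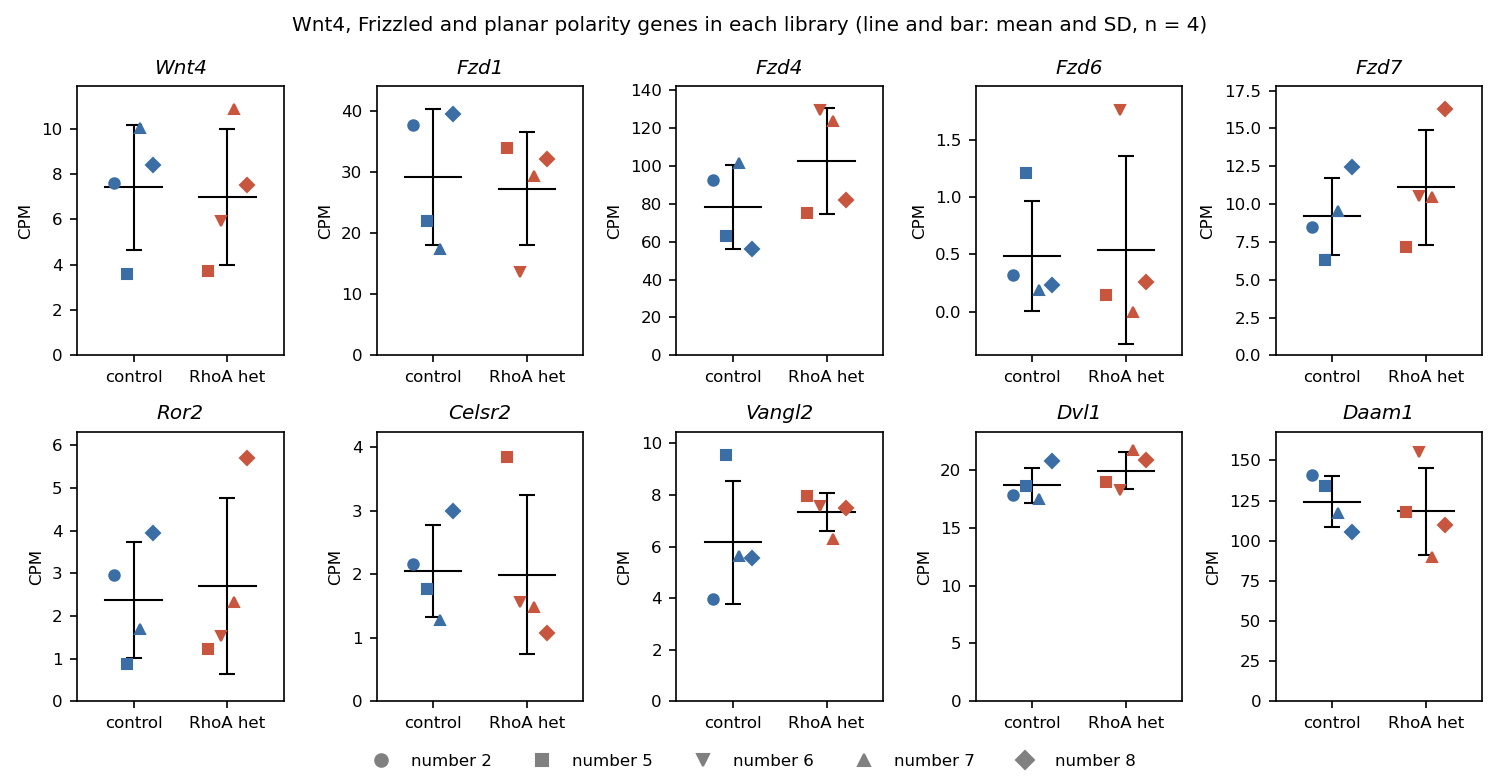
Level of each gene in CPM (vertical axis, from 0 except where the SD of Fzd6 reaches below it) in the 4 control and 4 RhoA het libraries, with the replicate number as the marker shape and the mean and SD of each group in black. The groups overlap for all 10 genes, and for Wnt4 the lowest libraries are the 2 numbered 5, at 3.58 and 3.71 CPM.

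**Figure D2:**
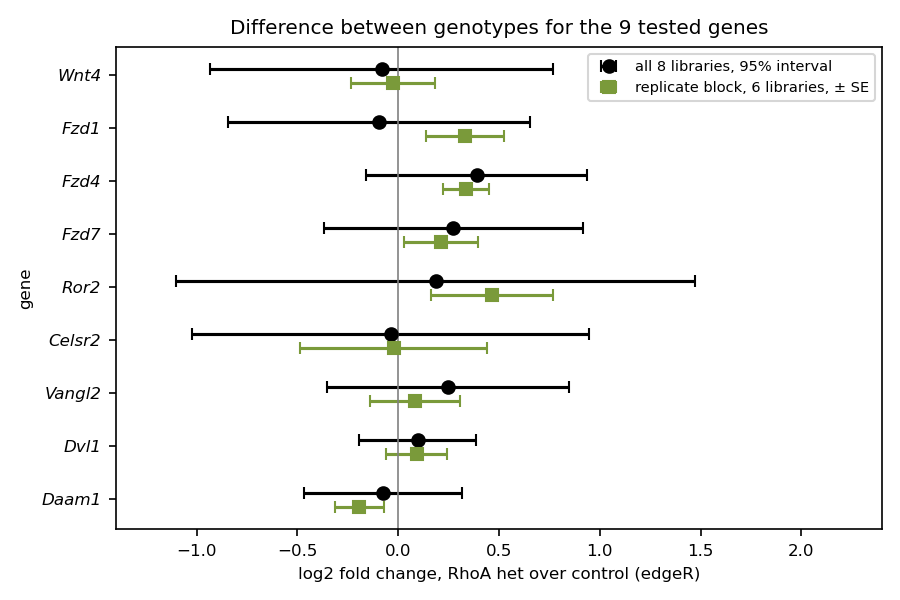
Log2 fold change of RhoA het over control (horizontal axis) for the 9 genes tested by edgeR, over all 8 libraries with the 95% confidence interval (black) and over the 6 libraries of 3 pairs with the replicate block and its SE (green). Every black interval spans 0, from the narrow one of Dvl1 (-0.19 to 0.39) to the wide one of Ror2 (-1.10 to 1.47).

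Wnt4 (ENSMUSG00000036856.5; mm39 chromosome 4, 137004800 to 137027037, plus strand, 5 exonic intervals) encodes the ligand. Its level was 7.61, 3.58, 10.04 and 8.41 CPM, then 3.71, 5.94, 10.8 and 7.51 CPM. Both groups ran from a low library numbered 5 to a high library numbered 7, and the highest library was 3.03-fold above the lowest. The means were 7.41 ± 2.75 (control) and 7.001 ± 3.001 (RhoA het) CPM (SD, n = 4 per group). The log2 fold change was -0.082 (SE 0.38, edgeR unadjusted p 0.833, exact permutation p 0.857). Its 95% interval allowed a RhoA het level between 0.524-fold and 1.7-fold of control. The counts behind these values were 77 to 268 fragments per library. Within the pairs numbered 5, 7 and 8 the difference of log2 CPM (RhoA het minus control) was 0.051, 0.11 and -0.16, so it changed sign between pairs.

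Since muscle fibres make Wnt4, fibre transcripts in the libraries were set beside it. The 10 myofibre markers summed to 75.2 to 490.6 CPM in control and 44.98 to 455.9 CPM in RhoA het, with 10 of 10 detected in every control library and 9 of 10 in every RhoA het library. By library the sums were 75.2, 490.6, 211.1 and 80.98 CPM, then 201.5, 455.9, 68.6 and 44.98 CPM. The largest sums, in control replicate 5 and RhoA het replicate 6, stood beside Wnt4 at 3.58 and 5.94 CPM. Control replicate 7, next in fibre RNA, had the second highest Wnt4, and control replicates 2 and 8 had little fibre RNA with middling Wnt4. RhoA het replicate 7 had the highest Wnt4 (10.8 CPM) with 68.6 CPM of fibre RNA. RhoA het replicate 5 had 3.71 CPM of Wnt4 with 201.5 CPM of fibre RNA, and replicate 8 had 7.51 with 44.98 CPM. Fibre RNA was lower in RhoA het in each of the 3 pairs, beside Wnt4 differences of 0.051, 0.11 and -0.16 in log2 CPM. The part of fibre RNA in the Wnt4 level was not tested.

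Wnt4 was 1 of 9 Wnt ligand genes, of 19 on the list, that passed the filter on low counts. Wnt6 was the most abundant per length, at 15.02 TPM averaged over all libraries, and Wnt4 came next at 5.48, with Wnt9a at 5.13 and Wnt10a at 5.02 TPM. Wnt5a, the classical ligand of Ror receptors, averaged 1.105 TPM. Wnt3, Wnt7a and Wnt9b had no count in any library. Wnt7a, named above as a ligand that drives division, therefore has a one-sided upper limit of 3 fragments per library. Of the 9 tested ligands 0 had an unadjusted p under 0.05 between the groups, 7 had positive fold changes, and the median log2 fold change was 0.27. The smallest p-values belonged to Wnt5b (log2 fold change 0.36, edgeR unadjusted p 0.331), Wnt2b (0.68, p 0.438) and Wnt11 (0.33, p 0.531).

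**Figure D3:**
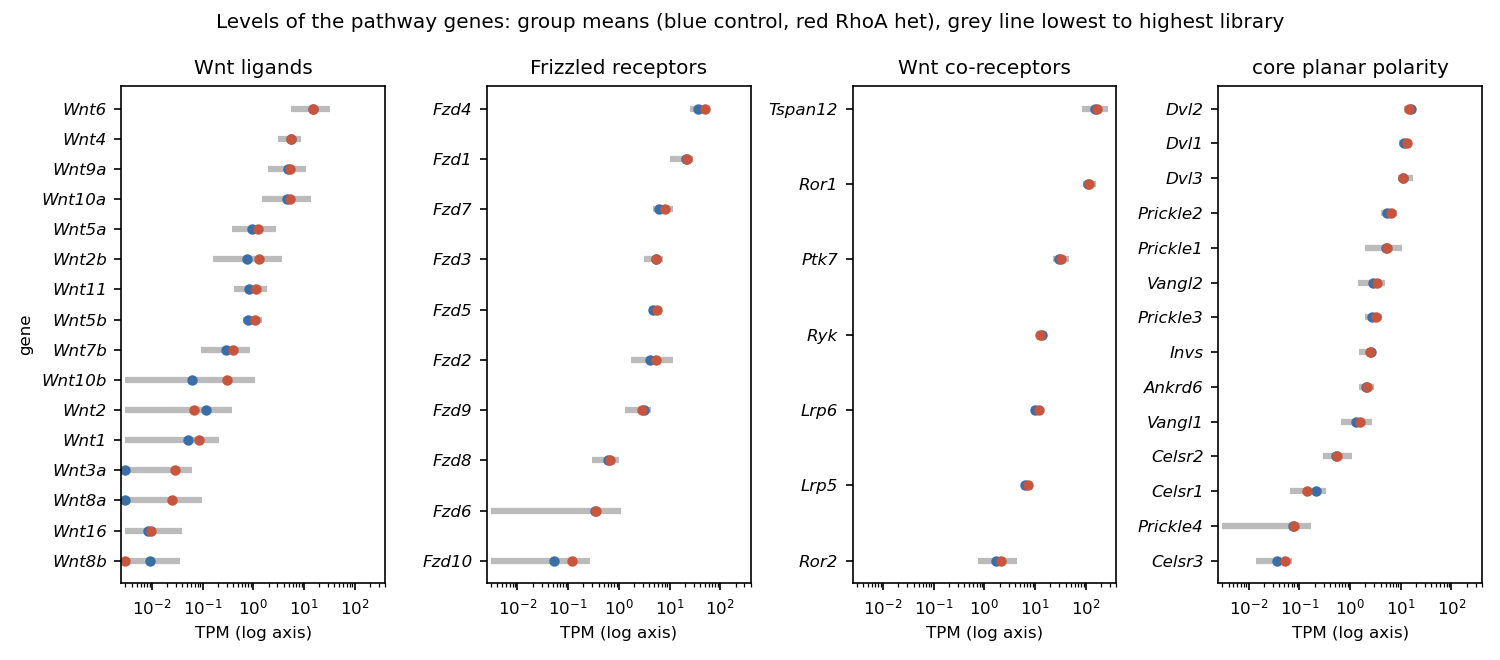
Mean TPM on a log axis of the Wnt ligands, Frizzled receptors, Wnt co-receptors and core planar polarity genes in control (blue) and RhoA het (red), with a grey line from the lowest to the highest of the 8 libraries; values of 0 lie at the left edge, and genes with no count are left out. Group means lie close together beside the spread of the libraries, and Wnt6 (15.02 TPM), Fzd4 (43.2 TPM), Tspan12 (157.3 TPM) and Dvl2 (15.2 TPM) lead their panels.

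Fzd4 (ENSMUSG00000049791.5; mm39 chromosome 7, 89053563 to 89062342, plus strand, 2 exonic intervals) encodes a receptor for Wnt ligands and for norrin, and is known for its role in vessels. Its level was 92.6, 62.9, 101.6 and 56.4 CPM, then 75.3, 129.5, 123.7 and 82.1 CPM. The highest control library lay above the 2 lowest RhoA het libraries, so the groups overlapped. The means were 78.4 ± 22.1 and 102.7 ± 27.9 CPM (SD, n = 4 per group), with the largest fold change of the 9 tested members. The log2 fold change was 0.39 (SE 0.24, edgeR unadjusted p 0.145, exact permutation p 0.229), and the 95% interval ran from 0.895-fold to 1.92-fold. Fzd4 was higher in RhoA het in each of the 3 pairs, by 0.26, 0.28 and 0.54 in log2 CPM. With the replicate block its log2 fold change was 0.34 (SE 0.12, unadjusted p 0.0142, adjusted p 0.788 in edgeR), and over all alternatives its adjusted p ran from 0.788 to 1. It was the 1 member of 9 with an unadjusted p under 0.05 there, where 5.26% of all genes had one.

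The library with the highest Fzd4, RhoA het replicate 6, was also the one rich in endothelial markers. Pecam1 was at 137.3 CPM and Cdh5 at 94.03 CPM in it, against at most 16.1 and 33.6 CPM elsewhere. Without this library the log2 fold change of Fzd4 was 0.26 (edgeR unadjusted p 0.343). RhoA het replicate 7 had nearly as much Fzd4, 123.7 CPM, with 15.5 CPM of Pecam1. The part of the endothelial RNA in the Fzd4 level was not tested. Tspan12, a tetraspanin that assists Fzd4, was the most abundant gene of the co-receptor list at 157.3 TPM and had a log2 fold change of 0.11 (edgeR unadjusted p 0.747).

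Fzd1 (ENSMUSG00000044674.7; mm39 chromosome 5, 4803839 to 4808035, minus strand) and Fzd7 (ENSMUSG00000041075.9; mm39 chromosome 1, 59521583 to 59526114, plus strand) are receptor genes with a single exonic interval each. Fzd1 was at 37.7, 21.97, 17.4 and 39.5 CPM, then 33.9, 13.7, 29.3 and 32.2 CPM. The means were 29.2 ± 11.1 and 27.3 ± 9.24 CPM (SD, n = 4 per group), with a log2 fold change of -0.096 (SE 0.33, edgeR unadjusted p 0.78). The low library of the RhoA het group was again replicate 6, and without it the log2 fold change was 0.12. In the pairs numbered 5, 7 and 8 the log2 CPM difference was 0.62, 0.75 and -0.29. The block fit turned the sign, with a log2 fold change of 0.33 (edgeR unadjusted p 0.113). Fzd1 and Fzd4 ran opposite ways over several libraries, since control replicate 8 had the most Fzd1 and the least Fzd4 while RhoA het replicate 6 had the least Fzd1 and the most Fzd4.

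Fzd7, the receptor tied to stem cell division, was at 8.45, 6.27, 9.56 and 12.4 CPM among the control libraries. The RhoA het libraries held 7.14, 10.5, 10.5 and 16.3 CPM. In both groups replicate 5 was the lowest and replicate 8 the highest. The means were 9.18 ± 2.57 and 11.1 ± 3.81 CPM (SD, n = 4 per group), which gave a log2 fold change of 0.27 (SE 0.29, edgeR unadjusted p 0.362). The log2 fold change was 0.029 without RhoA het replicate 8 and 0.45 without control replicate 8. Within the pairs numbered 5, 7 and 8 the difference of log2 CPM was 0.18, 0.13 and 0.39, and the block fit gave 0.21 (edgeR unadjusted p 0.266).

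Fzd6 (ENSMUSG00000022297.16; mm39 chromosome 15, 38869429 to 38901583, plus strand), the receptor best known for hair and skin polarity, did not pass the filter on low counts. Its fragments numbered 6, 26, 5 and 5, then 3, 37, 0 and 5. One library in each group thus held most of them. The exact 95% Poisson interval, which covers counting error only, was 17 to 38.1 for the 26 fragments of control replicate 5 and 26.1 to 51 for the 37 of RhoA het replicate 6, both above the 13.1 that the 6 fragments of control replicate 2 allowed. A count of 0, as in RhoA het replicate 7, allows up to 3 fragments or 0.134 CPM as a one-sided limit (3.69 fragments at the upper end of the two-sided interval). Its exons overlap those of a predicted gene on the opposite strand, Gm26704, over 152 bases, and the counts do not use strand. Gm26704 had 1 fragment over all 8 libraries, and Fzd6 had 87.

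Over the whole receptor family, 8 of 10 Frizzled genes passed the filter, all but Fzd6 and Fzd10. Per length, Fzd4 and Fzd1 led, followed by Fzd7 at 7.18, Fzd3 at 5.34, Fzd5 at 5.16 and Fzd2 at 4.72 TPM over all libraries. Of the 8 tested, 0 had an unadjusted p under 0.05 between the groups, 5 had positive fold changes, and the median log2 fold change was 0.15. Fzd5 had the third smallest p of the family (log2 fold change 0.21, edgeR unadjusted p 0.376).

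Ror2 (ENSMUSG00000021464.16; mm39 chromosome 13, 53263348 to 53440160, minus strand, 11 exonic intervals) encodes a receptor tyrosine kinase that works with Frizzled in the planar polarity branch. It was at 2.96, 0.883, 1.69 and 3.95 CPM, then 1.22, 1.52, 2.33 and 5.71 CPM. It spread the most among the tested members, 6.47-fold from control replicate 5 to RhoA het replicate 8, on 19 to 111 fragments per library. The means were 2.37 ± 1.36 and 2.69 ± 2.06 CPM (SD, n = 4 per group), which gave a log2 fold change of 0.19 (SE 0.57, edgeR unadjusted p 0.753). Within the pairs numbered 5, 7 and 8 the difference of log2 CPM was 0.43, 0.45 and 0.52, and the block fit gave 0.47 (edgeR unadjusted p 0.152). Leaving out 1 library, which breaks a pair, gave -0.48 without RhoA het replicate 8, -0.11 without control replicate 5 and 0.55 without control replicate 8. Ror1, the paralogue of Ror2, was far more abundant, at 113.8 TPM against 1.89 TPM, and had a log2 fold change of -0.023 (edgeR unadjusted p 0.922). All 7 co-receptor genes passed the filter, 0 of 7 had an unadjusted p under 0.05, and the smallest p-values belonged to Ryk (log2 fold change -0.20, p 0.174), Lrp6 (0.17, p 0.368) and Lrp5 (0.086, p 0.645).

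Ror2 is also expressed by fibroblasts, so fibro-adipogenic markers were set beside it. All 8 were detected in every library, and they summed to 2404 to 10818 CPM in control and 4319 to 9100 CPM in RhoA het. The largest sums, in the libraries numbered 5, came mostly from the collagens Col1a1 and Col3a1, and Ror2 was lowest there. Pdgfra, which defines these cells, was at 13.6, 2.55, 2.77 and 8.78 CPM, then 5.54, 13.6, 1.75 and 12.4 CPM. The 3 libraries richest in Ror2 (numbers 2 and 8 of control and number 8 of RhoA het) were also rich in Pdgfra, but RhoA het replicate 6 had much Pdgfra with 1.52 CPM of Ror2. The part of these cells in the Ror2 level was not tested.

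Celsr2 (ENSMUSG00000068740.15; mm39 chromosome 3, 108298167 to 108323383, minus strand, 31 exonic intervals) encodes an atypical cadherin at the core of planar polarity. It was at 2.17, 1.77, 1.27 and 3.01 CPM, then 3.85, 1.57, 1.48 and 1.08 CPM, on 21 to 82 fragments. Unlike Wnt4, its libraries numbered 5 and 8 went apart, with log2 CPM differences of 1.09 and -1.402, while those numbered 7 differed by 0.20. The log2 fold change was -0.037 (SE 0.44, edgeR unadjusted p 0.934). Its relatives Celsr1 and Celsr3 were lower per length, at 0.18 and 0.0448 TPM.

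Vangl2 (ENSMUSG00000026556.17; mm39 chromosome 1, 171828527 to 171856011, minus strand, 12 exonic intervals) encodes a membrane protein that takes the side of the cell opposite to Frizzled. It was at 3.96, 9.57, 5.62 and 5.54 CPM, then 7.98, 7.56, 6.28 and 7.51 CPM. The RhoA het libraries lay close together, inside the range of the control libraries. The means were 6.17 ± 2.39 and 7.33 ± 0.735 CPM (SD, n = 4 per group), which gave a log2 fold change of 0.25 (SE 0.27, edgeR unadjusted p 0.38). Without control replicate 5 the log2 fold change was 0.52 (edgeR unadjusted p 0.0351, adjusted p 0.9995), and without control replicate 2 it was 0.082. Over the alternatives tried, its adjusted p ran from 0.93 to 1.

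Dvl1 (ENSMUSG00000029071.17; mm39 chromosome 4, 155931859 to 155943760, plus strand) encodes one of the 3 Dishevelled adaptors that carry the Frizzled signal into the cell. Its level was the steadiest of the tested members, between 17.5 and 21.7 CPM, a span of 1.24-fold. Its SD of log2 CPM over the 8 libraries was lower than that of all but 3.03% of genes tested. The means were 18.7 ± 1.5 and 19.9 ± 1.61 CPM (SD, n = 4 per group), which gave a log2 fold change of 0.096 (SE 0.13, edgeR unadjusted p 0.475). The 95% interval of 0.875-fold to 1.31-fold was the narrowest among the members. Its exons overlap those of Tas1r3 on the opposite strand over 36 bases. Dvl2 at 15.2 and Dvl3 at 11.04 TPM stood close to Dvl1 at 12.5 TPM, and Dvl2 had the smallest p of the core list (log2 fold change -0.23, edgeR unadjusted p 0.167). Of 12 tested core planar polarity genes (14 listed), 0 had an unadjusted p under 0.05, 6 had positive and 6 negative fold changes, and the median log2 fold change was 0.0022. Celsr1 had the second smallest p (log2 fold change -0.73, p 0.231 in edgeR).

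Daam1 (ENSMUSG00000034574.11; mm39 chromosome 12, 71877852 to 72039107, plus strand, 25 exonic intervals), the formin that links Dishevelled to RhoA, had the highest mean TPM of the members over all 8 libraries. Its lead over Fzd4 was within the spread (adjusted exact permutation p 0.297), and in RhoA het the mean of Fzd4 was higher, 50.02 against 47.9 TPM. Daam1 was at 140.9, 134.01, 116.999 and 105.5 CPM, then 117.8, 155.03, 90.1 and 109.9 CPM. RhoA het replicates 6 and 7 held the highest and the lowest value of all libraries, so the RhoA het group enclosed the control group. The means were 124.4 ± 16.1 and 118.2 ± 27.2 CPM (SD, n = 4 per group), which gave a log2 fold change of -0.073 (SE 0.17, edgeR unadjusted p 0.685). The 95% interval ran from 0.724-fold to 1.25-fold.

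Downstream of Daam1 and Dishevelled, 16 of 17 listed planar polarity effectors and small GTPase pathway genes were tested. One had an unadjusted p under 0.05, Rhoa, the targeted gene, with a log2 fold change of -0.29 (SE 0.13, edgeR unadjusted p 0.0495, adjusted p 1). The median over the 16 was 0.013. Cdc42 and Rac1, the sister GTPases and the most abundant genes of the list, had log2 fold changes of -0.076 and -0.041 (edgeR unadjusted p 0.578 and 0.818). Rock1, a kinase activated by RhoA, had 0.15 (p 0.236) and the Dishevelled regulator Dact3 -0.30 (p 0.458). In the β-catenin branch, 14 of 16 genes were tested and 0 had an unadjusted p under 0.05 (median log2 fold change 0.016). Ctnnb1, which encodes β-catenin, was at 109.05 TPM and Csnk1a1 at 226.4 TPM over all libraries. The smallest p-values there belonged to Tcf7l1 (log2 fold change 0.36, p 0.169), Pygo2 (-0.22, p 0.278) and Bcl9 (-0.23, p 0.296). Among secretion factors, antagonists and agonists, 15 of 22 were tested and 0 had an unadjusted p under 0.05 (median 0.09). Sfrp5, a secreted antagonist, was the most abundant of them at 380.1 TPM, ahead of Wls, which ferries Wnts to the cell surface, at 43.6 TPM. Znrf3 (log2 fold change 0.16, p 0.156), Rspo1 (-0.56, p 0.257) and Sfrp4 (0.29, p 0.353) had the smallest p-values of that list.

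Several members moved with the replicate number in both genotypes. Wnt4, Fzd7 and Ror2 were lower in both libraries numbered 5 than in any other library, which held for 3 of 9 tested members and for 10.6% of all genes tested. Vangl2 was above all other libraries in both of them, but 1 of 9 members is close to the share of all genes (11.3%). Fzd7 and Ror2 were in turn highest in both libraries numbered 8 (2 of 9 members, 6.88% of all genes), and Wnt4 was highest in both libraries numbered 7 (1 of 9, 4.56%). No member was lowest in both libraries numbered 7 (4.45% of all genes) or in both numbered 8 (4.09%). The meaning of the numbers is not given in the sources used here, and this pattern was described after the values were seen. Other Wnt genes followed the same numbers. Of the 9 tested ligands, 6 were lower in both libraries numbered 5 than elsewhere (Wnt2b, Wnt4, Wnt5a, Wnt6, Wnt9a and Wnt10a), and all of these but Wnt4 were highest in both libraries numbered 8. Wnt6 was at 5.06 and 3.43 CPM in the libraries numbered 5 and at 18.9 and 21.5 CPM in those numbered 8, in control and RhoA het respectively. Wnt10a was at 9.25 and 10.2 CPM in those numbered 8 and at most at 2.66 CPM elsewhere. Sfrp5 ran from 63.8 and 66.2 CPM in the libraries numbered 5 to 488.8 and 549.8 CPM in those numbered 8.

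The libraries numbered 5 also differed in genes of dividing cells. Of 8 proliferation genes, a list chosen after the values were seen, 6 were above all other libraries in both of them. Mki67, a marker of cycling cells, was at 57.6 and 37.6 CPM in control and RhoA het replicate 5 and at most at 3.8 CPM in the other 6 libraries. Whether dividing cells had a part in the levels of the Wnt genes was not tested. Without the libraries numbered 5, an alternative added after seeing the data, 0 members were called and the log2 fold changes of Fzd7 and Ror2 were 0.27 and 0.13. Those of Vangl2, Celsr2 and Fzd1 moved further, to 0.48, -0.65 and -0.35, from 0.25, -0.037 and -0.096 over all libraries. Wnt4, Fzd4, Daam1 and Dvl1 were at -0.12, 0.41, -0.05 and 0.10.

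**Figure D4:**
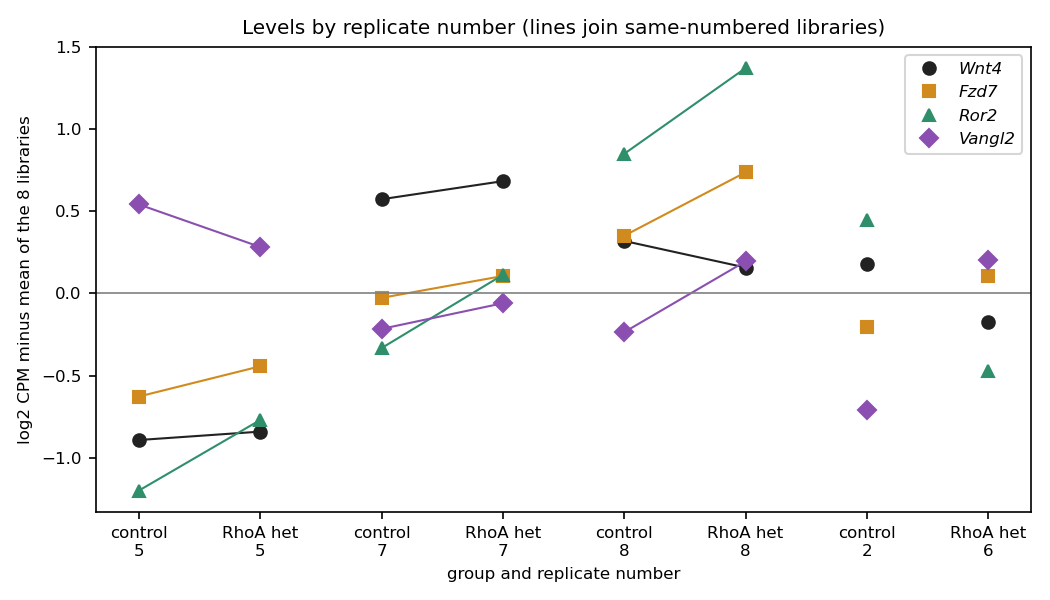
Log2 CPM of Wnt4, Fzd7, Ror2 and Vangl2 in each library, minus the gene's mean over the 8 libraries (vertical axis), with libraries ordered by replicate number and lines joining same-numbered control and RhoA het libraries. Wnt4, Fzd7 and Ror2 lie lowest in both libraries numbered 5, where Vangl2 is highest, and Fzd7 and Ror2 lie highest in both libraries numbered 8.

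The sequences before the start sites of Wnt4, Fzd7 and Ror2 are given to show what they share and do not share. These 3 genes were picked after the values were seen, for being lowest in both libraries numbered 5. Over all 8 libraries Pearson's r of log2 CPM was 0.873 between Fzd7 and Ror2. For Wnt4 it was lower, at 0.64 with Fzd7 and 0.63 with Ror2. The sequences are the 250 bases upstream of the RefSeq start site in GRCm38.p6. They run 5′ to 3′ on the gene's strand, in lower case with motif matches in capitals. They lie at chr4:137277385-137277634 (plus strand, Wnt4), chr1:59481897-59482146 (plus strand, Fzd7) and chr13:53286125-53286374 (minus strand, Ror2), coordinates that are not those of the count table, which uses mm39.
Wnt4: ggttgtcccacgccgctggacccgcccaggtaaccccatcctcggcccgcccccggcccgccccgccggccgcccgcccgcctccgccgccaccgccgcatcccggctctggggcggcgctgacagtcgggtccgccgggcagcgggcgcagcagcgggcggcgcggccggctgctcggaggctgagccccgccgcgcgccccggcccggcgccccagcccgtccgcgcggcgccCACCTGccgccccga
Fzd7: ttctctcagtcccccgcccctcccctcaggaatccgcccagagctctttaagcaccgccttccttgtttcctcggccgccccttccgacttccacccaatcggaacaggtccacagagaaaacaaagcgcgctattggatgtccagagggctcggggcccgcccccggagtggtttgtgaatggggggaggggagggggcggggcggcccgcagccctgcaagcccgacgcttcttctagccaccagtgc
Ror2: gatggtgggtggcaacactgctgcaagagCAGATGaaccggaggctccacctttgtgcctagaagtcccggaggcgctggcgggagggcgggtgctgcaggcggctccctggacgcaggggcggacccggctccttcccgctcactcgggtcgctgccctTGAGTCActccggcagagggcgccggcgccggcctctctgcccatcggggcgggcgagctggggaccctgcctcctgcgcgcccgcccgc

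The capitals mark an E-box (CANNTG, the site of MyoD and related factors) 15 bases before the start site of Wnt4 and another 221 bases before that of Ror2, and an AP-1 site (TGANTCA) 90 bases before that of Ror2. Fzd7 held no match. Both strands were searched, no matches in these windows overlapped, and a match is a description of letters, not of binding. E-boxes occur in 66.2% of 32536 promoter windows of the same length and in 7 of the 10 windows of the members (9 of 10 members had an entry and Daam1 had 2). AP-1 sites occur in 6.73% of all windows. The TCF/LEF core CTTTGA, the landing site of the β-catenin branch, occurred in windows of Fzd1 and Daam1 (2 of 10 windows, 13.9% of all), and the TEAD core GGAATG (12.6% of all) and the CArG box bound by SRF (1.48% of all) in none. The Wnt4 window was 85.2% G and C with 44 CpG dinucleotides, against a median of 52.4% and 6 over all windows, and those of Fzd7 and Ror2 were at 65.2% and 73.2%. The first bases after the RefSeq start site occur in the longest coding transcript (GENCODE mouse release M21) of Wnt4 and Ror2. For Fzd7, Fzd1, Daam1 and Celsr2 they do not, so those windows may not lie before the start of that transcript.

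Genes most like each member over the 8 libraries were found by Pearson's r of log2 CPM among all genes tested. They were picked for the highest r, so no p is given. The libraries share replicate numbers, so they are not independent points. Wnt4 was most like Kcp (r 0.987, Spearman's coefficient 0.952), Ovca2 (0.967, Spearman's 0.81), Mthfd1 (0.961, Spearman's 0.929), Gm43111 (0.961, Spearman's 0.952) and Haus2 (0.951, Spearman's 0.952). Mthfd1, a folate enzyme, ran from 36.4 to 71.2 CPM. Fzd4 was most like Ccn2 (r 0.967, Spearman's 0.952), a gene known as a YAP target, which ran from 63.03 to 241.5 CPM, and like Ing1 (0.952). Fzd1 was most like Ybx1 (0.99) and Slc8a3 (0.983), Fzd7 like Itpk1 (0.972) and Ccdc62 (0.971), and Ror2 like Gjb5 and Gm15927 (0.955 each). Vangl2 was most like Arsi (0.992) and Zdhhc21 (0.979), Daam1 like Slc4a1ap (0.983) and Ankrd33b (0.941), Dvl1 like Scamp3 (0.942) and Pi4ka (0.938), and Celsr2 like Cops9 (0.933) and Atp5o (0.929). Among the members themselves, the highest r was 0.873 between Fzd7 and Ror2 and the lowest -0.80 between Daam1 and Dvl1.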

How the data were processed

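Total RNA was amplified with a low-input kit that uses template switching, per the labels' protocols. The authors deposited raw counts per gene, made per the file headers by featureCounts 1.6.4 (fragments assigned to exons, GENCODE mouse release 34 on mm39, with no strand or multi-mapping option). The TPM values the authors deposited equal counts per length, scaled per library (largest relative difference 2e-14). The submitters' processing notes also name cutadapt, STAR and DESeq2. The counting command named 10 alignment files. The table held 8 libraries. Symbols came from GENCODE identifiers, and 51884 of 57180 genes had one.

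Genes were filtered with edgeR's filterByExpr (15660 kept), scaled by TMM and tested with the quasi-likelihood F test over all 8 libraries without covariates (edgeR 4.0.16, R 4.3.3, tested on simulated data), called at an adjusted p under 0.05. Log2 CPM used a prior count of 2. Standard errors came from the F statistic. Exact permutation tests of log2 CPM were two-sided over 70 assignments, with 0.0286 the smallest p. DESeq2 was 1.42.0 and limma 3.58.1.

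Same-numbered libraries correlated in their deviations from the group means (0.544, 0.231 and 0.488 for numbers 5, 7 and 8), so the numbers were taken as pairs in the block fit. That rests on the data alone, since the labels do not explain the numbers. Of 50-base windows in each member's longest coding transcript (GENCODE mouse release M21), 4.33% for Wnt4, 2.41% for Fzd6 and at most 0.15% for the others occur in transcripts of another gene, and reads there can be lost.

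Members and lists were chosen with earlier results of these data known. Genes named are the members, up to 2 per list with the highest TPM and up to 3 with the smallest p, the most alike genes (5 for Wnt4, 2 for the others), Rhoa and cell type markers. Other names were chosen after their values were seen.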

Additional observations from a re-analysis of the deposited data

Results flagged for a closer look

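Libraries were compared within each group of 4 by Dixon's ratio of the gap to the range, against its 95% critical value. There were 7 results past it among 36 groups of values (10 members and 8 marker lists in both groups), where chance gives about 1.8. For Fzd6, control replicate 5 stood high at 1.21 CPM with 0.317 the next highest, and RhoA het replicate 6 at 1.76 CPM with 0.257 the next highest of its group. No other member was past the value.

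The remaining results were marker sums. RhoA het replicate 6 stood high in endothelial markers (691.8 CPM, next 143.9) and in erythroid markers (319.3 CPM, next 25.4). RhoA het replicate 5 stood high in fibro-adipogenic markers (9099.6 CPM, next 4753). Control replicate 7 stood high in erythroid markers (142.6 CPM, next 22.3) and in immune markers (6.6 CPM, next 3.48). Fzd6 and the endothelial sum share the library RhoA het replicate 6, and its part in the Fzd6 count was not tested.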

How the results depend on the processing

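No member was called under any of 18 alternatives (other scaling, filters, DESeq2, limma, the replicate block, single libraries left out, and the libraries numbered 5 left out, the last chosen after seeing the data). The number of genes called over the whole table was 0 under 17 of them and 2 with the replicate block, which changed no other call. Fzd4, Fzd7, Vangl2 and Dvl1 kept a positive log2 fold change under all 18. With the replicate block Fzd1 turned to 0.33, and over the same 6 libraries without it Fzd1 was 0.25 and Celsr2 0.069. Celsr2 was 0.0057 with limma on log2(TPM + 1). Leaving out single libraries gave -0.39 to 0.13 for Wnt4, -0.28 to 0.12 for Fzd1, -0.23 to 0.031 for Daam1, -0.48 to 0.55 for Ror2 and -0.57 to 0.20 for Celsr2, each with a change of sign. Wnt4 turned positive without control replicate 7 (0.10) or RhoA het replicate 5 (0.13).

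For the order of levels, leaving out a library kept each direction, with log2 differences of 0.81 to 1.20 for Fzd4 over Fzd1, 0.63 to 0.84 for Fzd1 over Dvl1, 0.76 to 0.93 for Dvl1 over Fzd7 and 1.39 to 1.97 for Ror2 over Celsr2. None of these 4 stayed under the threshold with 7 libraries (adjusted exact permutation p 0.05 to 0.0625), where fewer sign flips are possible. With same-numbered libraries averaged, added after seeing the data, the log2 differences were 1.14, 0.69, 0.83 and 1.70 in that order, and none could pass over 5 numbers. Low counts limit Fzd6, Celsr2 and Ror2 the most.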
